A study of Homo sapiens with 6 samples.

Results

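The genes of prostaglandin E2 synthesis, breakdown, transport and signalling were examined in HuCCT1, a cell line of human intrahepatic cholangiocarcinoma. The 10 genes were taken by name from the 20811 genes of the expression table: PTGS1, PTGS2, PTGES, PTGES2, PTGES3, HPGD, SLCO2A1, PTGER2, PTGER3 and PTGER4. Of these, 9 had over 3 reads in at least 1 library and PTGER3 had no read in any. The HuCCT1/CD90+ line carried the lentivirus human THY1-CMV-GFP, THY1 being the gene of CD90, and the HuCCT1/CD90− line carried Lenti-CMV-GFP-2A-Puro-Blank. Both lines were transduced at a multiplicity of infection of 40 and grown in RPMI medium with 10% foetal bovine serum, and the labels name no other agent. Both vector names include CMV, a viral promoter, which promoter drives THY1 is not stated in the sources used here, only the name of the blank vector includes Puro, and the sources used here do not say whether either line was a single clone. Each line gave 3 libraries, and the labels do not say whether these came from separate cultures. The methods speak of biological replicates in general without naming the sequencing libraries, so that the p-values measure only the spread between these libraries, which may be technical. In bulk samples fewer cells that express a gene and less RNA per cell cannot be told apart.

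Prostaglandins are lipid signals made from arachidonic acid, which phospholipases release from membranes. The cyclooxygenases PTGS1 and PTGS2 turn it into prostaglandin H2, and terminal synthases make prostaglandin E2 and the other prostanoids from that precursor. Prostaglandin E2 acts on the receptors EP1 to EP4, and it is removed by uptake through SLCO2A1 and oxidation by HPGD. PTGS2 is known as the inducible cyclooxygenase of inflammation and of many epithelial tumours, cholangiocarcinoma among them, while PTGS1 is made in many tissues without a stimulus.

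Promoter sequences of the 4 genes that passed the test described below are shown because these genes moved in opposite directions. They are the 250 bases before the RefSeq start in GRCh38.p14, read 5′ to 3′ on the strand of the gene. PTGS1 and HPGD have another RefSeq start each, and the more downstream one was chosen after both had been seen. Capitals mark matches on either strand to TATAAA (the box bound by TBP), CGTCA (the core of a cAMP response element), TTNNGNAA (a C/EBP site), CANNTG (an E-box), GGGCGG (a GC box) and TGANTCA (an AP-1 site), in which N is any base, and to the consensus of NF-κB. That consensus was taken as GGGRNNYYCC, in which R is A or G and Y is C or T.
PTGS2, chr1:186680424-186680673, minus strand: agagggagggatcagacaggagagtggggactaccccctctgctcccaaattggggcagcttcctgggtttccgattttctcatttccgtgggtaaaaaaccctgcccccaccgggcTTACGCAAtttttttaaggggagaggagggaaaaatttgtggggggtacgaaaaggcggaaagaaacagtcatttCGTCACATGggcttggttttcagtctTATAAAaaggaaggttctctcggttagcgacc
PTGES, chr9:129753043-129753292, minus strand: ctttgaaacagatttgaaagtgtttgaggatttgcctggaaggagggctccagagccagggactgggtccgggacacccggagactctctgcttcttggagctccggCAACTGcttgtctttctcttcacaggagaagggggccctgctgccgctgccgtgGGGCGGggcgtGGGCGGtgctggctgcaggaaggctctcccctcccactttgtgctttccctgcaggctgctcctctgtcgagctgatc
PTGS1, chr9:122375052-122375301, plus strand: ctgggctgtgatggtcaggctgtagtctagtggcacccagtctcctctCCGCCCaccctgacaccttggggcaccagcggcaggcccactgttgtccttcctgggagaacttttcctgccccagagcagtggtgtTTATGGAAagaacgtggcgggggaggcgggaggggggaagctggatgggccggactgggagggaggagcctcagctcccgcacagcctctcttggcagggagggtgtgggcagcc
HPGD, chr4:174522489-174522738, minus strand: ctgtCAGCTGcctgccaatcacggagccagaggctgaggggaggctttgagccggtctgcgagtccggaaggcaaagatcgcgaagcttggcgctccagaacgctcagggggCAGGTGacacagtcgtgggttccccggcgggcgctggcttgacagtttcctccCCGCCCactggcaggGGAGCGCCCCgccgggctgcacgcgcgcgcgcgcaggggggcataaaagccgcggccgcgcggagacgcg
The PTGS2 promoter held TATAAA from 32 to 27 bases before the start, CGTCA from 58 to 54, overlapping an E-box match from 55 to 50, and a C/EBP match from 133 to 126. In PTGES, GC boxes lay 89 to 84 and 78 to 73 bases before the start and an E-box match lay at 143 to 138. The PTGS1 sequence held a C/EBP match at 115 to 108 and a GC box at 202 to 197, and that of HPGD held E-box matches at 246 to 241 and 138 to 133 and a GC box at 85 to 80. At the other start, not shown, PTGS1 had a TATAAA match at 208 to 203 and a GC box at 58 to 53. The other start of HPGD had CGTCA at 77 to 73 and an E-box match at 250 to 245. Which genes hold TATAAA or CGTCA thus depends on the start chosen. The NF-κB consensus had a match in HPGD, at 70 to 61, and none in the PTGS2, PTGES and PTGS1 sequences shown. The PTGS2 sequence does hold GGGACTACCC, which differs from the pattern only at its first Y, where it has A. The lack of a strict match therefore does not show that PTGS2 has no such site. Of 35116 RefSeq promoters of the same length, 10.7% held TATAAA, 21.2% CGTCA, 33.2% TTNNGNAA, 61.8% CANNTG, 42.6% GGGCGG, 6.57% TGANTCA and 9.96% the NF-κB consensus. The motifs were chosen with the PTGS2 sequence in view, the NF-κB consensus was first set aside because no match was seen there and was searched later, and a match is a description of the letters only. RefSeq promoters were found for 8 of the 10 genes, PTGER3 and SLCO2A1 being the others.

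The libraries held 9345680 to 10551516 reads on genes in HuCCT1/CD90− and 8587634 to 9327650 in HuCCT1/CD90+, and 3 reads corresponded to 0.284 to 0.349 RPM (reads scaled to a common library total). THY1 had 0, 1 and 0 reads in HuCCT1/CD90− and 46.6, 51.8 and 73.8 RPM in HuCCT1/CD90+, as the labels give it. Beside the marker counts that follow, limma at an adjusted p of at most 0.05 called 27.4% of genes with over 3 reads in a library, and 13.1% of all genes with the replicate block. The biliary epithelial markers KRT7, KRT8, KRT18, KRT19, EPCAM and SOX9 summed to 8199–9306 RPM in the HuCCT1/CD90− libraries against 10939–11677 RPM in the others, and 4 of the 6 were called higher, or 2 with the replicate block over all genes. Immune markers summed to 131 to 155 RPM against 88.9 to 107 RPM, and 3 of the 6 had over 3 reads. Of these 3, 1 was called higher and 2 lower, or 2 in all with the block. The defining markers PTPRC and CD3E had at most 3 reads in each library. The myeloid markers went both ways, CD14 averaging 80.8 against 4.32 RPM, LYZ 12.0 against 1.52 RPM and CD68 50.8 against 92.2 RPM. Endothelial markers summed to 14.5 to 23.2 RPM against 0.643 to 1.63 RPM, and 3 of the 4 had over 3 reads. Of these 3, 1 was called lower, CDH5, which averaged 16.6 against 0.293 RPM. Fibroblast markers summed to 23.7 to 30.8 RPM against 14.7 to 15.2 RPM, with 3 of 5 called lower, or 1 with the block. The part of these marker differences in the results below was not tested.

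The cyclooxygenases moved in opposite directions. In HuCCT1/CD90+ cells PTGS2 was 5.71-fold lower, PTGES, the inducible prostaglandin E synthase, was 3.48-fold lower, PTGS1 was 4.13-fold higher and HPGD, the dehydrogenase that begins prostaglandin breakdown, was 3.62-fold higher, as ratios of mean RPM. SLCO2A1, the prostaglandin uptake transporter, was 1.74-fold higher without passing the test, and the remaining synthases and receptors showed no difference beyond the spread of the libraries. The test was limma, fitted to log2(RPM + 1) of all genes, and a gene was called at a Benjamini-Hochberg adjusted p of at most 0.05. Of the 10 genes, 2 were called higher, beside 9.41% of all genes, and 2 lower, beside 9.52% of all genes. Among genes with over 3 reads in a library 27.4% were called in either direction, beside 4 of 9 of the prostaglandin genes, and the median log2 fold change was -0.01 over all of those genes and 0.02 over the 9. At an unadjusted p of at most 0.05 and a fold change of at least 1.5, the thresholds of the study's methods, 5 of the 10 passed, beside 20.1% of all genes.

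These calls depended on the replicate block and on the set of genes tested. Blocking on the replicate number over all genes, limma called 0 of the 10 genes, beside 13.1% of all genes. In a check on simulated reads the fit over all genes missed many true changes. It also made more false calls than the other fits, most of them in genes under 1 RPM. The criterion, over 90% of strongly changed genes called, was met by limma on genes averaging 1 RPM or more, edgeR and DESeq2. The simulation raised only genes averaging 10 RPM or more and gave all genes the same spread beyond counting error. It also changed a far smaller share of genes than was called here. It therefore does not show which fit is better for these data, or for genes as low as HPGD. Over the 12062 genes averaging 1 RPM or more limma called 5 of 9 prostaglandin genes, SLCO2A1 being the addition, beside 41.7% of those genes, and HPGD passed the filter only through HuCCT1/CD90+. With the block added to that filter, a combination chosen after the data had been seen, the same number of prostaglandin genes was called, beside 48.5% of genes, and DESeq2 on the recovered reads also called 5 of 9, beside 37.0%. The prior degrees of freedom, which say how far limma draws the spread of each gene toward a common value, were 0.449 over all genes and 7.23 with the filter.

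**Figure D1:**
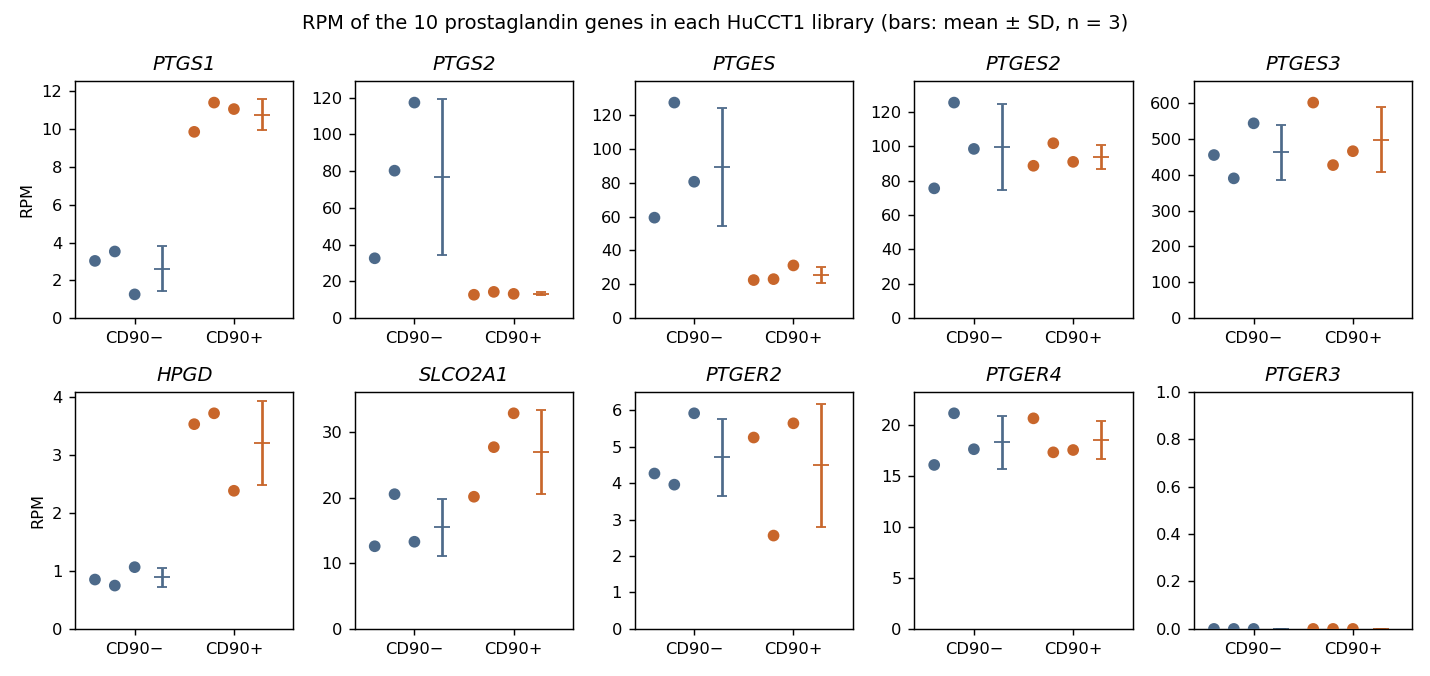
RPM of each prostaglandin gene (y axis, linear and from 0, scaled per gene) in the 3 HuCCT1/CD90− and 3 HuCCT1/CD90+ libraries, each point being 1 library and bars giving mean ± SD. PTGS2 and PTGES lie lower and PTGS1 and HPGD higher in all HuCCT1/CD90+ libraries than in any HuCCT1/CD90− library, whereas the libraries of SLCO2A1 overlap at 20.2 and 20.5 RPM.

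PTGS2, the inducible cyclooxygenase, lies at chr1:186671791-186680427 on the minus strand (this and the following gene positions are those of GENCODE 29 on GRCh38). Replicates 1, 2 and 3 of HuCCT1/CD90− had 32.6, 80.2 and 117 RPM, and those of HuCCT1/CD90+ had 12.8, 14.3 and 13.2 RPM. The groups did not overlap, and the HuCCT1/CD90− libraries were spread far more widely than the HuCCT1/CD90+ libraries, with means of 76.7 ± 42.5 (SD, n = 3) and 13.4 ± 0.802 RPM. Lack of overlap, here and elsewhere, is a description only. The share of all genes without overlap was not counted, and some genes that were not called, such as CBR1 and DUSP1, also did not overlap. On the log2(RPM + 1) scale the change was -2.25 (SE 0.51, 95% interval -3.62 to -0.88), with a limma adjusted p of 0.049. The adjusted p was 0.11 with the replicate block over all genes, 0.00036 with the filter at 1 RPM and 0.00028 with the block and the filter. With any library but HuCCT1/CD90− replicate 1 left out of the fit over all genes PTGS2 was not called, the limma adjusted p values reaching 0.146, and the change ran from -1.86 without HuCCT1/CD90− replicate 3 (adjusted p 0.0995) to -2.77 without HuCCT1/CD90− replicate 1 (adjusted p 0.0095). Around PTGS2, the 50 nearest expressed genes changed by a median of -0.38 (log2), and with this removed the change of PTGS2 was -1.89 and the adjusted p 0.083.

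PTGS1, the cyclooxygenase made in many tissues at rest, lies at chr9:122370530-122395703 on the plus strand. Its values were 3.03, 3.53 and 1.26 RPM in HuCCT1/CD90−, from 32, 33 and 13 reads, and 9.86, 11.4 and 11.1 RPM in HuCCT1/CD90+, from 92, 98 and 102 reads. The groups did not overlap, and the lowest library was HuCCT1/CD90− replicate 3. Mean levels were 2.61 ± 1.19 and 10.8 ± 0.813 RPM (SD, n = 3), a log2 fold change of 1.77 (SE 0.30, 95% interval 0.97 to 2.57) with a limma adjusted p of 0.023. The adjusted p was 0.080 with the block over all genes, 0.00011 with the filter and 0.00017 with both. It was called over all genes without HuCCT1/CD90− replicate 2 or 3 and not without each of the other 4 libraries, the adjusted p then reaching 0.088.

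Within each library PTGS2 was read 10.8, 22.7 and 93.0 times per PTGS1 read in HuCCT1/CD90− and 1.29, 1.26 and 1.20 times in HuCCT1/CD90+. Efficiency of the amplicons sets the size of such a ratio, so that it does not compare the levels of the enzymes, but every HuCCT1/CD90− library was above every HuCCT1/CD90+ library. This ratio was computed after the values of both genes had been seen and carries no test.

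The terminal synthases differed from each other. PTGES, at chr9:129738331-129753047 on the minus strand, encodes the membrane synthase that is often induced with PTGS2. It was read at 59.3, 127 and 80.5 RPM in HuCCT1/CD90− and 22.5, 23.1 and 31.1 RPM in HuCCT1/CD90+, without overlap. The means were 89.02 ± 34.7 and 25.6 ± 4.83 RPM (SD, n = 3), and the log2 fold change was -1.71 (SE 0.33, 95% interval -2.59 to -0.82) with a limma adjusted p of 0.033. The adjusted p was 0.094 with the block over all genes, 0.00023 with the filter and 0.00029 with both. Over all genes PTGES was called without HuCCT1/CD90− replicate 1 or 2 and not without each of the other 4 libraries, with adjusted p up to 0.106.

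PTGES2, at chr9:128120693-128128462 on the minus strand, encodes another membrane-associated synthase. It was read at 75.5, 125 and 98.5 RPM in HuCCT1/CD90− and 88.7, 102 and 90.9 RPM in HuCCT1/CD90+, so that the groups overlapped. The log2 fold change was -0.06 (95% interval -0.61 to 0.49, limma adjusted p = 1). PTGES3, at chr12:56663341-56688408 on the minus strand, encodes the cytosolic synthase, also known as the HSP90 co-chaperone p23, and had the highest counts of the 10 genes. Its values were 455, 390 and 543 RPM against 601, 427 and 466 RPM, which overlapped, with a log2 fold change of 0.10 (95% interval -0.41 to 0.62, limma adjusted p = 0.88). PTGES3 has processed pseudogenes, whose reads could not be told apart here.

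**Figure D2:**
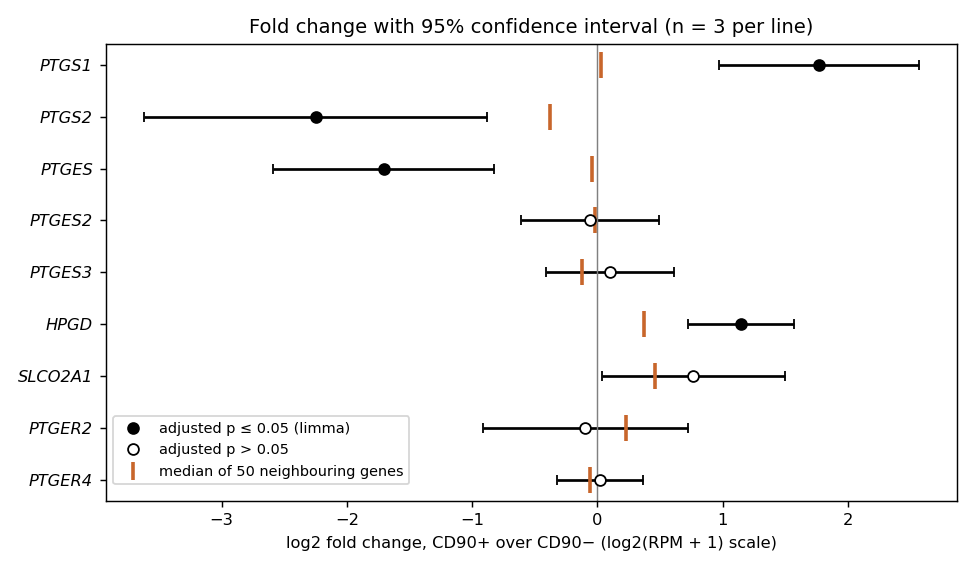
log2 fold change of each prostaglandin gene, HuCCT1/CD90+ over HuCCT1/CD90− on the log2(RPM + 1) scale (x axis), with limma 95% intervals as bars, n = 3 libraries per line, and coloured ticks at the median of the 50 neighbouring genes. The intervals of PTGS1 and HPGD lie above 0 and those of PTGS2 and PTGES below 0, that of SLCO2A1 begins at 0.033, and those of PTGES2, PTGES3, PTGER2 and PTGER4 span 0.

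Of the breakdown and uptake genes, HPGD passed the test over all genes and SLCO2A1 did not. HPGD, at chr4:174490177-174523154 on the minus strand, was read at 0.853, 0.749 and 1.07 RPM in HuCCT1/CD90− and 3.54, 3.73 and 2.39 RPM in HuCCT1/CD90+. These values came from 9, 7 and 11 reads against 33, 32 and 22 reads, and the groups did not overlap. Means were 0.890 ± 0.162 and 3.22 ± 0.725 RPM (SD, n = 3), and the log2 fold change was 1.15 (SE 0.16, 95% interval 0.72 to 1.57), which at so low a level understates the ratio of the means. The limma adjusted p was 0.014, and it was 0.086 with the block over all genes, 0.00027 with the filter and 0.00066 with both. HPGD averaged under 1 RPM in HuCCT1/CD90− and so passed the filter only through the line in which it was higher, which means that the filtered values add no support to its call. Leaving out 1 library gave adjusted p from 0.011 to 0.054, and HPGD was not called without HuCCT1/CD90− replicate 1 or 2 or HuCCT1/CD90+ replicate 1. Its 50 nearest expressed genes had a median log2 fold change of 0.38, and with this removed the change was 0.87 and the adjusted p 0.027.

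SLCO2A1, at chr3:133928145-134052184 on the minus strand, was read at 12.6, 20.5 and 13.3 RPM in HuCCT1/CD90− and 20.2, 27.7 and 32.9 RPM in HuCCT1/CD90+. The lowest HuCCT1/CD90+ library was just under the highest HuCCT1/CD90− library, while within each replicate number HuCCT1/CD90+ was the higher. The log2 fold change was 0.77 (SE 0.27, 95% interval 0.033 to 1.5) with a limma adjusted p of 0.146 over all genes and 0.17 with the replicate block. It was 0.017 with the filter at 1 RPM, 0.0072 with the block and the filter, and 0.0037 in DESeq2. The nearby genes had a median log2 fold change of 0.46, and with this removed the change of SLCO2A1 was 0.33 and the limma adjusted p 0.58. PTGS2 was read 38.2, 107 and 110 times per HPGD read in HuCCT1/CD90− and 3.61, 3.84 and 5.55 times in HuCCT1/CD90+, again a ratio computed after the values were seen.

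Among the receptors, PTGER4 and PTGER2, which encode EP4 and EP2 and raise cAMP through the stimulatory G protein, were read at similar levels in both lines. PTGER4, at chr5:40679498-40693735 on the plus strand, was read at 16.1, 21.2 and 17.7 RPM against 20.7, 17.4 and 17.6 RPM. Its log2 fold change was 0.02 (95% interval -0.32 to 0.36, limma adjusted p = 1), its interval was the narrowest of the 9 genes with reads, and its sign turned in some of the alternatives. PTGER2, at chr14:52314305-52328606 on the plus strand, was read at 4.27, 3.96 and 5.92 RPM against 5.25, 2.56 and 5.64 RPM, from 22 to 61 reads a library. The groups overlapped, with a log2 fold change of -0.10 (95% interval -0.91 to 0.72, limma adjusted p = 1). PTGER3, at chr1:70852353-71047808 on the minus strand, encodes EP3, which lowers cAMP. It was at 0 reads in all 6 libraries, which allows up to 3 reads or 0.349 RPM in a library, a limit that covers counting error only because reads were amplified without molecular identifiers.

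The wider prostanoid pathway, in lists of genes by role, held changes in both directions, and the counts below stand beside 27.4% of all genes with over 3 reads called by limma in either direction. Among 9 other prostanoid synthases, 6 had over 3 reads, 1 was called higher and 2 lower, with a median log2 fold change of -0.35 over those 6. PTGIS, the prostacyclin synthase, was read at 48.0, 63.7 and 49.9 RPM in HuCCT1/CD90− and had 0, 0 and 1 reads in HuCCT1/CD90+. Of its reads 1615 were in HuCCT1/CD90− and 1 in HuCCT1/CD90+, a ratio per library size of 1451 with a 95% interval of 260 to 57331 that covers counting error only and leaves out the spread between libraries, and the limma adjusted p was 0.00029. AKR1C3, a prostaglandin F synthase with near-identical paralogs between which reads are uncertain, fell from 18.9 to 1.61 RPM on average (log2 fold change -2.95, limma adjusted p = 0.00078). AKR1B1, another prostaglandin F synthase, rose from 4.02 to 28.2 RPM (log2 fold change 2.52, limma adjusted p = 0.0038).

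Of 14 arachidonate release genes 10 had over 3 reads, 3 were called higher and 2 lower, beside 9.41% and 9.52% of all genes, and the median log2 fold change of the 10 was 0.23. PLA2G4A, the cytosolic phospholipase A2 that releases arachidonic acid, fell from 3.28 to 0.146 RPM (log2 fold change -1.87, limma adjusted p = 0.015, 0.089 with the block). PLA2G2A, a secreted phospholipase, averaged 2.26 RPM in HuCCT1/CD90− and had no read in HuCCT1/CD90+, at least 6.46-fold lower against the floor of 3 reads per library (limma adjusted p = 0.034, 0.094 with the block). MGLL, the monoacylglycerol lipase, rose from 67.6 to 209 RPM (log2 fold change 1.61, limma adjusted p = 0.0020, and 1.06 with the neighbour median removed), and PLA2G12A, a secreted phospholipase, rose from 8.58 to 24.1 RPM (1.41, limma adjusted p = 0.029, 0.11 with the block and 0.056 with the neighbour median removed). Release genes moved in both directions.

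Of 6 other breakdown and transport genes, all with over 3 reads, 1 was called higher and 1 lower, with a median of -0.08. SLCO3A1, an organic anion transporter, rose from 55.3 to 81.9 RPM (log2 fold change 0.56, limma adjusted p = 0.012, and 0.30 with an adjusted p of 0.062 once the median of its 50 nearest genes was removed) and PTGR2, a prostaglandin reductase, fell from 26.8 to 20.0 RPM (-0.41, limma adjusted p = 0.023, 0.063 with the block). Of 6 other prostanoid receptors 3 had over 3 reads and 1 was called lower, with a median of 0.09 over the 3. This was PTGFR, the prostaglandin F receptor, with 11, 23 and 27 reads in HuCCT1/CD90− and 0, 0 and 2 reads in HuCCT1/CD90+ (limma adjusted p = 0.028, 0.064 with the block). In the lipoxygenase branch, a list of leukotriene genes and other lipoxygenases, 9 of 13 genes had over 3 reads, 3 were called higher and 1 lower, with a median of -0.0019. ALOX5, the lipoxygenase that begins leukotriene synthesis, had 0 reads in every library. Besides ALOXE3, those called higher were the epidermal lipoxygenase ALOX12B and the leukotriene receptor LTB4R, with at most 14 and 6 reads in a library. ALOXE3, an epidermal lipoxygenase, had 0, 1 and 0 reads in HuCCT1/CD90− and 24, 25 and 27 reads in HuCCT1/CD90+ (limma adjusted p = 0.00045), and CYSLTR1, a leukotriene receptor, had 15, 16 and 32 reads against 0, 0 and 1 (limma adjusted p = 0.016).

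**Figure D3:**
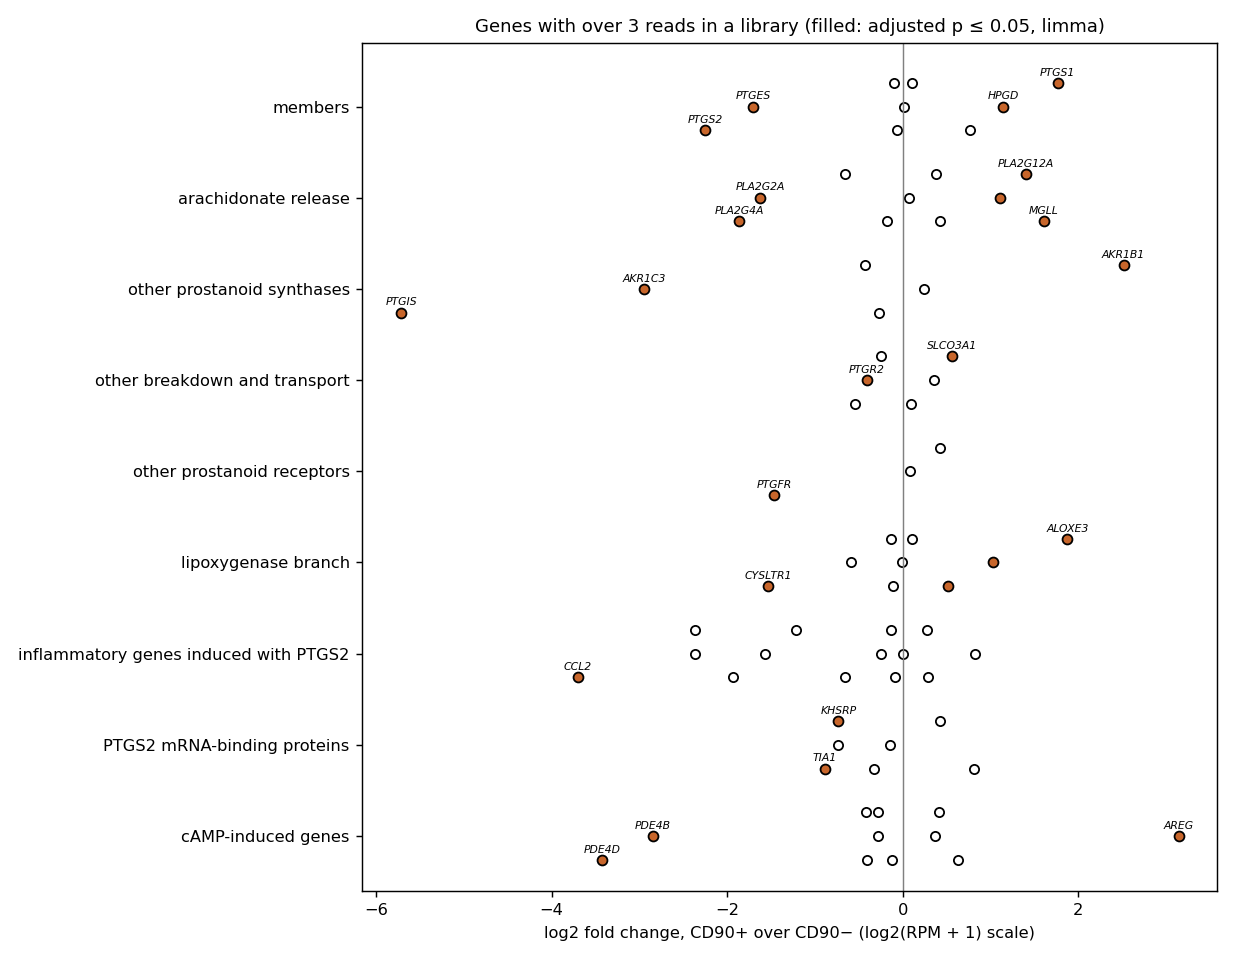
log2 fold change (x axis, log2(RPM + 1) scale) of every gene with over 3 reads in a library, by list, each point being 1 gene and filled points being called by limma over all genes. Called genes averaging 1 RPM or more are named, from PTGIS at -5.72 to AREG at 3.15, and most lists hold called genes on both sides of 0.

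Of 14 inflammatory genes that are commonly induced together with PTGS2, limma over all genes called 0 higher and 1 lower, beside 27.4% of genes with over 3 reads in either direction, and the median log2 fold change was -0.45. Over genes averaging 1 RPM or more it called 6 lower and 0 higher, beside 41.7% of those genes, and with the block and the filter 7, TNFAIP3 being added as higher, beside 48.5%. Of the 6, CXCL1 and CSF3 averaged under 1 RPM in HuCCT1/CD90+ and passed the filter only through HuCCT1/CD90−. CCL2, the monocyte chemokine, fell from 36.3 to 1.85 RPM (log2 fold change -3.70, limma adjusted p = 0.0016). CXCL8, listed as IL8, was read at 40.5, 105 and 123 RPM against 23.7, 16.0 and 22.5 RPM without overlap, and its limma adjusted p was 0.066 over all genes and 0.00088 with the filter at 1 RPM. The neutrophil chemokine CXCL1 averaged 11.2 against 0.851 RPM, the chemokine CCL20 17.9 against 4.61 RPM and the cytokine IL6 16.9 against 5.61 RPM, and CSF3, the granulocyte growth factor, had 9, 111 and 56 reads against 0, 1 and 0. Over all genes these 4 had limma adjusted p of 0.119, 0.153, 0.26 and 0.120, so that none was called, and IL6 overlapped between the lines. LIF, a cytokine of the interleukin 6 family, averaged 52.3 against 49.4 RPM and TNFAIP3, an inhibitor of NF-κB signalling, averaged 22.2 against 36.7 RPM (limma adjusted p = 1 and 0.40 over all genes), and the genes named here other than CCL2 and CXCL8 were chosen after their values were seen.

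The place of HuCCT1/CD90− replicate 1 in its line differed between lists. In 13 of the 14 inflammatory genes it had the lowest value of its line, as it did for PTGS2 and PTGES, beside 43.4% of the 12062 genes averaging 1 RPM or more, a count made after the values were seen. At that level it was lowest in 6 of 6 arachidonate release genes, 6 of 9 cAMP-induced genes, 5 of 9 prostaglandin genes, 3 of 6 other synthases, 2 of 5 breakdown and transport genes, 2 of 2 receptors, 2 of 4 lipoxygenase genes and 2 of 7 mRNA-binding proteins. Among the markers it was lowest in 2 of 6 biliary, 1 of 3 immune, 2 of 2 endothelial and 2 of 3 fibroblast genes. The summed level of the list was 211, 552 and 473 RPM in HuCCT1/CD90− and 261, 252 and 251 RPM in HuCCT1/CD90+, so that replicate 1 lay below the HuCCT1/CD90+ libraries in this sum. PTGS2 in that library nevertheless stayed above every HuCCT1/CD90+ library.

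**Figure D4:**
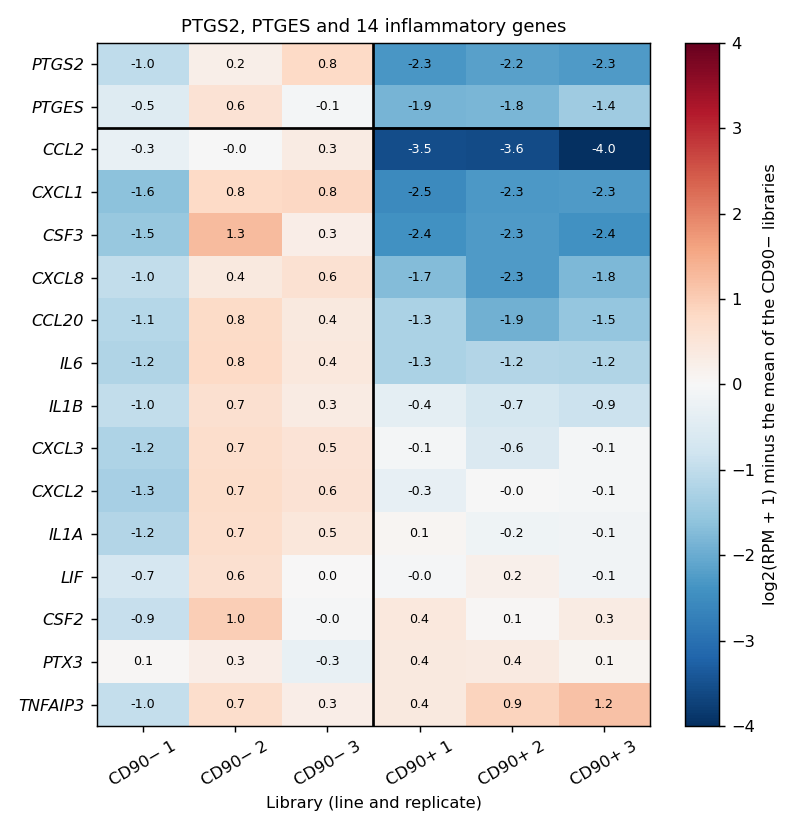
Heat map of log2(RPM + 1) minus the mean of the HuCCT1/CD90− libraries (colour and printed value) for PTGS2, PTGES and the 14 inflammatory genes (rows) in each of the 6 libraries (columns). HuCCT1/CD90− replicate 1 holds the lowest value of its line in 13 of the 14 genes, and CCL2 is lower in every HuCCT1/CD90+ library.

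Proteins that bind the PTGS2 mRNA and set its stability or translation were represented by 8 genes, 7 with over 3 reads, of which 2 were called lower (median log2 fold change -0.33), a share near the 27.4% of all genes with over 3 reads. TIA1, a translational repressor, fell from 57.4 to 30.7 RPM (-0.89, limma adjusted p = 0.011, 0.073 with the block) and KHSRP, which promotes mRNA decay, fell from 372 to 223 RPM (-0.73, limma adjusted p = 0.0064, 0.064 with the block). ZFP36, another decay factor, was read at 28.8, 30.9 and 27.2 RPM against 38.8, 59.6 and 58.9 RPM without overlap, with a limma adjusted p of 0.057 over all genes and 0.0048 with the filter, and is named after its values were seen. Of 11 genes that cAMP is known to induce, all with over 3 reads, 1 was called higher and 2 lower, with a median of -0.28, again a share near 27.4%. With the block over all genes 4 were called, NR4A3 being added as higher, beside 13.1% of all genes. AREG, an EGF receptor ligand, rose from 19.6 to 176 RPM (3.15, limma adjusted p = 0.0050), whereas the cAMP phosphodiesterases PDE4B and PDE4D fell from 37.0 to 4.25 RPM (-2.85, limma adjusted p = 0.0027) and from 32.7 to 2.13 RPM (-3.43, limma adjusted p = 0.00055).

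The genes most like PTGS2 and HPGD in pattern were taken from 8794 genes averaging 10 RPM or more, by the root mean square difference of centred log2(RPM + 1) values over the 6 libraries. For PTGS2 these were IL8 (0.284), CFB (0.332), ZC3H12A (0.334), GFPT2 (0.339) and CREB3L1 (0.373). CFB encodes complement factor B and ZC3H12A encodes the ribonuclease Regnase-1. For HPGD they were SQRDL (0.112), NEXN (0.128), DHRS7 (0.130), FAM83F (0.134) and PPP1R3D (0.136). The direction of these genes was fixed by the choice, and because the pseudocount compresses the low values of HPGD they changed 2.16-fold to 2.38-fold against 3.62-fold for HPGD itself.

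**Figure D5:**
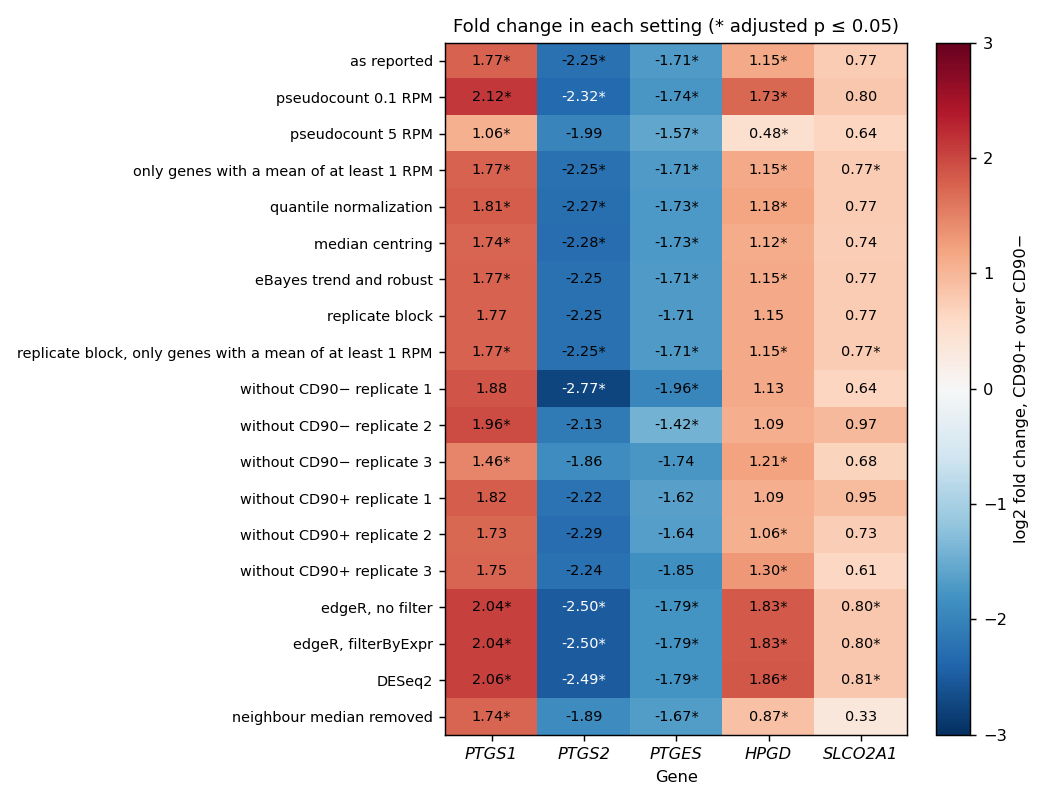
log2 fold change (colour and printed value) of PTGS1, PTGS2, PTGES, HPGD and SLCO2A1 in each setting of the processing, with asterisks at an adjusted p of at most 0.05 in that setting. Signs are the same in every row, while the asterisks of all 4 called genes are lost with the replicate block over all genes and without HuCCT1/CD90+ replicate 1, and present with the block and the filter at 1 RPM.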

How the data were processed

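Total RNA was reverse-transcribed, amplified with the Ion AmpliSeq Transcriptome panel, 1 amplicon per gene, and run on the Ion GeneStudio S5 Prime. Reads were counted by the authors in the ampliSeqRNA plugin, and the deposited values are RPM. The submitters' processing notes name hg19. GENCODE 29 positions (18609 genes, 89.4%) are on GRCh38 and were not converted. Whole reads were recovered for 100% of the deposited RPM values (tolerance 0.05 reads).

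Differences were tested with limma 3.58.1 in R 4.3.3 (lmFit and eBayes, log2(RPM + 1), all genes), the method named by the study. In simulated data this fit did not meet the criterion first set for it, over 90% of strongly changed genes called, and the criterion was then narrowed to the other fits, which met it. Genes at or near 0 enter its estimate of spread. It was kept because the design was already fixed, and the filtered values are given beside it. Same-numbered libraries deviated together (r = 0.21, 0.32 and 0.18 against -0.29 to 0.07 for other pairs), and on that ground alone the replicate block was run as an alternative. Deviations within a line sum to 0, so that positive same-number values push the other values down. The main fit, its intervals and the fits leaving out a library carry no block. If the numbers do mark pairs, the main fit ignores them. Alternatives were pseudocounts of 0.1 and 5 RPM, a mean of at least 1 RPM, quantile normalization, median centring, trend and robust eBayes, the replicate block, leaving out each library, a minimum fold of 2, edgeR 4.0.16, DESeq2 1.42.0 and removal of the median of the 50 nearest genes.

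All 10 genes were named. Of the pathway lists, called genes averaging 1 RPM or more were named, with exceptions stated, and marker lists were given by sums and counts with a few named. Members and lists were chosen with earlier results of these data known.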

Additional observations from a re-analysis of the deposited data

How the results depend on the processing

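PTGS1, PTGS2, PTGES, HPGD and SLCO2A1 kept their direction in every alternative run. Over all genes, limma with the replicate block called 0 of the 10 genes higher and 0 lower and 14 genes of the other lists in place of 21. Of all 20811 genes it called 2729 in place of 3939. With the block over genes averaging 1 RPM or more, added after the data were seen, it called 3 higher, 2 lower and 29 of the lists, beside 5850 of 12062 genes. The number called lower was 1 with a pseudocount of 5 RPM, with trend and robust eBayes and with the neighbour median removed. Leaving out each library gave 0 to 2 called higher and 0 to 2 called lower (0 and 0 without HuCCT1/CD90+ replicate 1). Of the lists, 13 genes were called without HuCCT1/CD90+ replicate 3, beside 2197 of all genes, and up to 28 without HuCCT1/CD90− replicate 1, beside 2932. The edgeR fit without a filter, whose prior degrees of freedom were infinite, called 36 of the lists, beside 5735 of all genes. Genes with a change near 0 turned in sign. The change of PTGER4 was -0.0056 with median centring, and with each library left out in turn the log2 fold change ran from -0.062 to 0.12 for PTGER4, from -0.24 to 0.12 for PTGES2, from -0.040 to 0.23 for PTGES3 and from -0.26 to 0.19 for PTGER2. The cause of these differences between settings was not tested, except that the filter changes the number of genes near 0 that enter the fit. The low counts of HPGD and PTGER2 and the 3 libraries per line limit precision.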
